A study of Mus musculus with 8 samples.

Results

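Cluster 10 is a small group of cells, among 12 clusters numbered 0 to 11, in which nearly every listed gene was detected in far fewer cells than elsewhere and in which S100a4, a calcium-binding protein of motile and mesenchymal cells, was comparatively well kept. Its members are all 718 gene entries listed for cluster 10, of 13337 entries for the 12 clusters, and they were taken by the cluster number alone. The cluster held an estimated 3.20% of all cells, a share solved from the detection values. Clusters 4, 0 and 1, which serve as references, held 9.60%, 14.3% and 14.1%.

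The cells were preadipocytes from inguinal white fat of C57BL/6 mice, either wild type (WT) or lacking both Hmgn1 and Hmgn2 (double knockout, DKO), grown on collagen. They were profiled at day 0, before differentiation was induced, and at day 6. The inducing medium held insulin, dexamethasone, IBMX, T3 and rosiglitazone, with insulin and T3 in the later medium. Each combination of genotype and day had 2 samples, and the table pools the cells of all 8. No value below therefore has a replicate, an SD or a test, WT and DKO or day 0 and day 6 could not be set apart, and the numbers of cells and molecules behind each percentage are unknown.

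White preadipocytes are fibroblast-like cells that carry an actin cytoskeleton and secrete an extracellular matrix. As they turn into fat cells they switch on genes for lipid uptake, storage and release, and the actin cytoskeleton and matrix are remodelled. In droplet sequencing a gene counts as detected in a cell when at least 1 molecule of its RNA is read, so the share of detecting cells falls with the abundance of the gene's RNA and with how much RNA is read from each cell.

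A cell of cluster 10 had on average 101 of the 718 listed genes detected, against 432 in a cell outside it, which is 23.4%. The same figure for cluster 4, computed over the genes listed there, was 29.0%, and the other clusters lay between 94.0% and 143%. The median listed gene was detected in 8.10% of cluster 10 cells and in 62.4% of all other cells. While 473 of the genes were found in over 50% of the other cells, 33 were found in over 50% of cluster 10 cells, and 420 were found in under 10%. Of the 718 genes, 717 were detected in fewer cluster 10 cells than elsewhere. The single exception was Tmsb4x, thymosin beta 4, a small protein that binds actin monomers, at 86.2% against 85.5%.

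**Figure D1:**
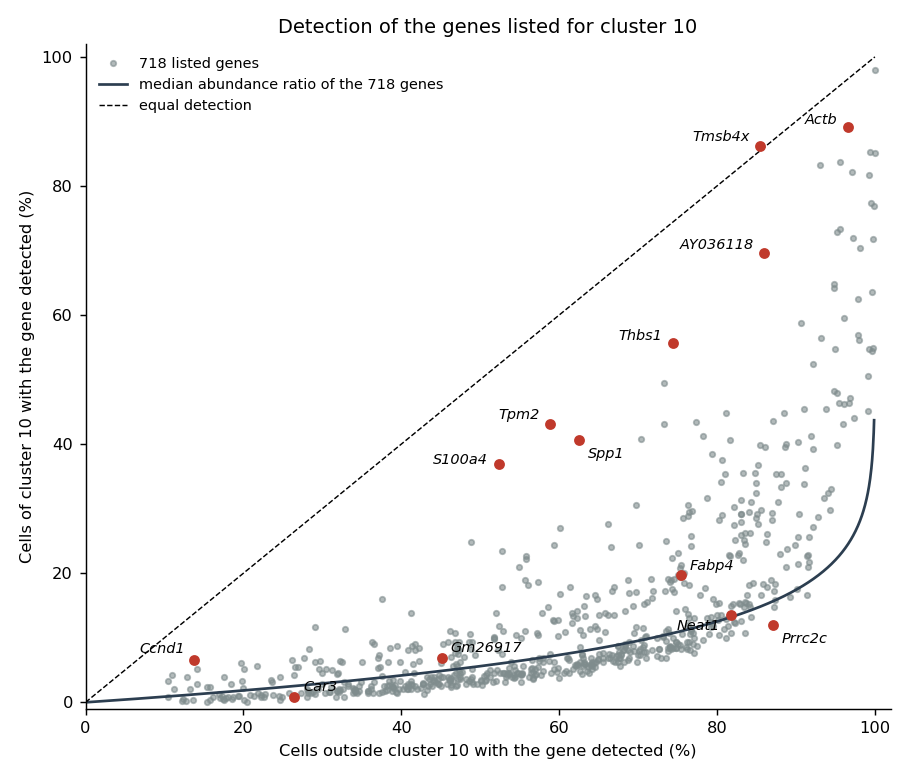
Each point is 1 of the 718 genes listed for cluster 10, with the percentage of detecting cells outside the cluster on the x axis and inside it on the y axis; the dashed line marks equal detection and the solid curve the median abundance ratio of 0.0832. Tmsb4x, at 86.2% and 85.5%, is the only point above the dashed line, and S100a4, at 36.9%, lies far above the curve.

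Because detection fell for nearly all genes, each gene was also set against the other genes of the cluster. The detection percentage was turned into the mean number of molecules per cell that a Poisson count with that detection would have, and the value in cluster 10 was divided by that in all other cells. The median of this abundance ratio was 0.0832. A gene's relative abundance is its ratio divided by this median, so that 1 marks the median gene and 50% of the genes lie above 1 by construction. It describes a gene relative to the listed genes only. All other cells mix clusters of unlike detection, and for such a mix the Poisson step gives too low a mean. Genes that differ between clusters can therefore get too high a ratio, by an amount not computed. Tmsb4x stood at 1.03 times its abundance in all other cells but at 0.37 times that in cluster 0. The median of the genes shared with cluster 0 was 0.11. Of the 718 genes, 165 (23%) had a relative abundance of at least 2 and 55 (7.66%) of at most 0.5. This balance rests on the centre, since relative to the summed abundance of all listed genes, which lowers every value 1.87 times, 34 genes had at least 2 and 336 at most 0.5. By odds of detection 138 genes changed side of 1. Of those named below, Gm42418, Col3a1, Ftl1, Fth1, Rplp0, Rpl4, mt-Atp6, Lpl, Junb and Neat1 turned below 1, and Col5a3, Col15a1 and Plin1 above it. Values just inside and just outside the upper limit were 2.0 for Plac8 and 1.99 for Tubb2b, and those at the lower limit were 0.50 for Pum2 and 0.50 for Peli2.

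On the log2 scale the relative abundances formed 2 humps, with 175 genes between -0.5 and 0, 74 between 0 and 0.5, and 120 between 0.5 and 1. The table lists genes only past a minimum fold change of their normalized levels, and the part of that minimum in the gap was not tested. Relative abundance also went with detection elsewhere, with a Spearman correlation of 0.47 across the 718 genes, which share the same cells and are not independent. A second measure was therefore given for the genes that matter. It divides a gene's detection in cluster 10 by the median there of the listed genes within 5 percentage points of it in the other cells.

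The label of the cluster was checked first. S100a4 (ENSMUSG00000001020.8, protein-coding, mm10, chr3:90603771-90606045, plus strand) was detected in 36.9% of cluster 10 cells and 52.4% of all others. Its relative abundance of 7.46 was the fifth highest, and was 12.1 by odds and 3.98 on the summed centre. Among the 95 listed genes of like detection elsewhere it had the highest detection in cluster 10, at 8.02 times their median of 4.60%. Across the clusters that list it, S100a4 ranged from 4.10% in cluster 4 to 90.6% in cluster 9, with 75.9% in cluster 0 and 82.6% in cluster 5. Cluster 10 lay between these high clusters and clusters 6, 2, 8 and 11, at 30.8%, 25.1%, 20.1% and 9.0%.

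The other gene named for the cluster, Gm26917 (ENSMUSG00000097971.3, a long non-coding RNA, mm10, chr17:39843013-39846341, plus strand), went against its use as a marker by detection. It was found in 6.90% of cluster 10 cells and 45.1% of all others. Cells of cluster 4 showed it at 24.2%, those of cluster 0 at 51.6%, those of cluster 9 at 55% and those of cluster 11 at 64.9%, so that cluster 10 had the lowest detection of the 5 clusters that list it. Its relative abundance was 1.43 and its place among 100 genes of like detection was 26. Centred on the sum of all listed genes in place of the median, its value turned to 0.76. Detection does not show how many molecules the few detecting cells held. The cluster is therefore described here by S100a4 and by its low detection.

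Gm26917 lies 616 bases before 2 other listed RNAs, which overlap each other. Gm42418 (chr17:39846958-39848788, plus strand) and AY036118 (chr17:39847113-39848035, minus strand) share all 923 bases of AY036118 on opposite strands, so within these bases reads of one can be told from the other only by strand. Gm42418 carries sequence of the small-subunit ribosomal RNA. The first 60 bases of the GENCODE transcripts are given to show this overlap, with the stretch of Gm42418 that pairs with the start of AY036118 (chr17:39847976-39848035), which is its reverse complement.
Gm26917: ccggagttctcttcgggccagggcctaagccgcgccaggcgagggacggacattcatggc
Gm42418: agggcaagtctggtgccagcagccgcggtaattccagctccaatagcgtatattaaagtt
AY036118: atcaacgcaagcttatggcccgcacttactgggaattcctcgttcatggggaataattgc
Gm42418 opposite AY036118: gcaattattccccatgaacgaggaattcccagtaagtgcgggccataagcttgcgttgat

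Gm42418 had the highest detection of all genes in cluster 10, at 97.9% of cells against 100% elsewhere. As the value elsewhere is printed as 100%, its relative abundance of 6.11 is an upper bound, and by odds it was 0.53. AY036118 was found in 69.6% of cluster 10 cells and 86.0% of all others, with a relative abundance of 7.28. The 2 low-detection clusters stood at opposite ends for AY036118. Cluster 10 had the lowest detection of the 11 clusters that list it and cluster 4, at 98.6%, was among the highest, together with clusters 2, 6, 8 and 11 at 98.0% to 99.3%. In clusters 0 and 1 AY036118 was found in 80.5% and 77.9%. Its abundance ratios to them were 0.73 and 0.79, beside medians of 0.11 and 0.10 for all shared genes. The ratio of 0.73 was the highest of the 266 genes shared with cluster 0. The nuclear RNAs did not stand above the rest of cluster 10. Neat1, the scaffold of nuclear paraspeckles, was found in 13.5% against 81.8% (relative abundance 1.02), and Kcnq1ot1, an imprinted antisense RNA, in 4.60% against 59.0% (0.63). Neat1 was also lower in cluster 10 than in any other cluster that lists it, with 54.0% in cluster 4 and 73.9% to 96.8% in the rest.

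Against all other cells pooled, many of the best kept genes of cluster 10 encode proteins of the cytoskeleton. All 16 listed members of a list of 32 actin and contractile genes, 31 of which occur in the table, had a relative abundance of at least 2, against 23% of all 718 genes, and their median was 3.33. All 16 also exceeded the median detection of genes of like detection elsewhere. All 16 were found in more cells of cluster 10 than of cluster 4, against 40% of the 483 genes listed for both clusters. On the summed centre 6 of the 16 had at least 2 and the median was 1.78, and against genes of like detection it was 1.68. Against clusters 0 and 1, the 15 actin genes shared with each had median abundance ratios of 0.12. For all genes shared with these clusters the medians were 0.11 and 0.10. Tmsb4x led with a relative abundance of 12.3, which was 24.2 by odds, 6.58 on the summed centre, 7.81 without cluster 4 in the reference and 3.46 against genes of like detection. It had the highest detection in cluster 10 of 95 genes of like detection elsewhere. Actb, cytoplasmic beta-actin, was found in 89.1% of cluster 10 cells against 96.6% elsewhere (relative abundance 7.88). Lgals1, the sugar-binding galectin 1, which is outside this list, was found in 83.2% against 93.1% (8.02), the second highest relative abundance. Tpm2, a tropomyosin that coats actin filaments, was found in 43.1% against 58.9% (7.62), and Vim, the intermediate filament protein vimentin, in 72.9% against 95.2% (5.17). The lowest members were Msn, moesin, which ties actin to the membrane, at 25.7% against 76.7% (2.45), Flna, an actin cross-linker, at 23.1% against 75% (2.28) and Arpc3, a subunit of the actin-branching Arp2/3 complex, at 29.8% against 85.6% (2.19).

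Tmsb4x and Tpm2 showed where cluster 10 stood among the other clusters. Detection of Tmsb4x was 98.8% to 99.8% for clusters 0, 1, 3, 5, 7 and 9, 86.2% for cluster 10, 84.3% for cluster 6, 72.4% to 75.4% for clusters 2, 8 and 11, and 23.4% for cluster 4. Detection of Tpm2 was 96.9% for cluster 9, 95.6% for cluster 0, 43.1% for cluster 10, 23.1% for cluster 6 and 13.8% or less for clusters 2, 8, 11 and 4. For both genes cluster 10 ranked below clusters 0 and 1 and above clusters 2, 4, 6, 8 and 11, although a cluster 10 cell showed few of its listed genes.

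**Figure D2:**
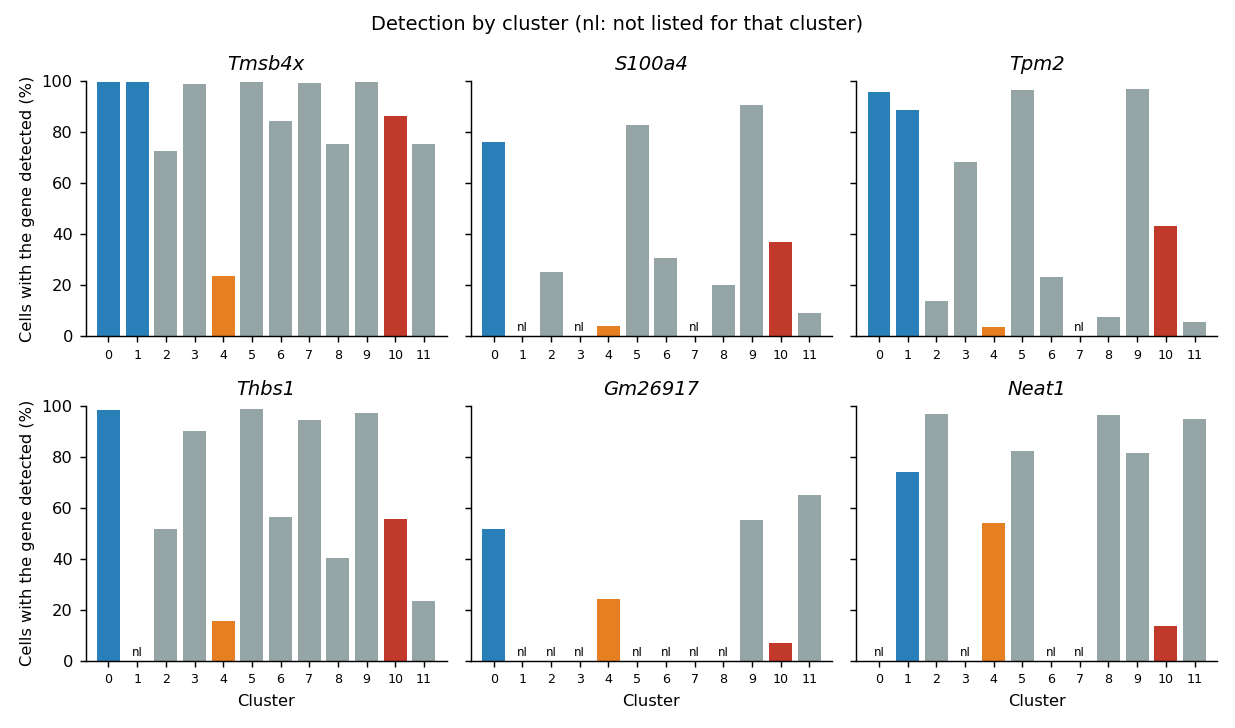
Bars give the percentage of cells of each cluster in which 6 genes were detected, with cluster 10 in red, cluster 4 in orange, clusters 0 and 1 in blue, and nl where a cluster does not list the gene. Tmsb4x, S100a4, Tpm2 and Thbs1 are higher in cluster 10 than in cluster 4, while Gm26917 and Neat1 are lowest in cluster 10.

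The S100 and annexin families, calcium-binding proteins that act in part at membranes, were likewise kept. All 5 listed S100 genes of 7 had a relative abundance of at least 2, against 23% of all 718 genes, with a median of 3.50. After S100a4, S100a6 was found in 83.7% of cells against 95.6% (6.98), S100a11 in 52.4% against 92.2% (3.50), S100a10 in 24.1% against 66.6% (3.02) and S100a13 in 10.6% against 48.7% (2.02). Of 5 listed annexins, 4 had at least 2, with a median of 2.63. Anxa3 was highest, at 23.5% against 52.8% (4.29), and Anxa6 lowest, at 9.80% against 51.7% (1.70).

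Among 16 listed matrix genes other than collagens, 10 had a relative abundance of at least 2, against 23% of all 718 genes. Their median was 3.94. Thbs1, thrombospondin 1, which binds cells and activates latent TGF-beta, was found in 55.6% of cluster 10 cells against 74.4% elsewhere (7.16), the highest of 115 genes of like detection. Spp1, osteopontin, was found in 40.7% against 62.5% (6.40), and Mfap5, a microfibril protein, in 49.5% against 73.3% (6.22). Sparc, a collagen-binding matrix protein, was found in 82.2% against 97.1% (5.86), and Mgp, an inhibitor of calcification, in 40.8% against 70.4% (5.18). The list split in 2, as the basement membrane laminins Lamc1, at 8.20% against 72.6% (0.79), and Lamb1, at 8.10% against 68.7% (0.87), and the cross-linking enzyme Loxl2, at 10.2% against 71.0% (1.04), lay near or under the median gene.

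The collagens varied as widely. Col3a1, a fibrillar collagen, was found in 81.7% against 99.2% (4.23), and Col5a2, which joins fibrillar collagens, in 56.4% against 93.2% (3.71). Col5a3 was at 3.50% against 39.0% (0.87) and Col15a1, of basement membranes, at 3.30% against 39.8% (0.79). Of 10 listed collagens, 8 were above 1 and 2 at least 2, beside 50% and 23% of all 718 genes. Of 11 listed secreted signals and chemokines, 7 had at least 2, with a median of 3.39. Igfbp6, which binds insulin-like growth factors, was found in 24.3% against 59.3% (3.72), and the chemokine Ccl11 in 3.30% against 10.5% (3.64). A2m, alpha-2-macroglobulin, a protease inhibitor, was at the other end, at 0.40% against 24.7% (0.17).

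S100a4 carried a TATAAA box close before its start, so its RefSeq promoter is shown as an example (GRCm38.p6, chr3:90603710-90603769, plus strand, the 60 bases before the start, with TATAAA in capitals from position -31).
S100a4: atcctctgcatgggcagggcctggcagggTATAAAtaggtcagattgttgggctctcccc

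Promoter windows of 300 bases, from 250 before to 50 after the start, were available for 534 of the 718 genes. They were searched on both strands for 3 motifs, the box TATAAA, the CArG box of serum response factor and the motif CCAAT, chosen after the values had been seen. TATAAA occurred in 31 of 151 windows (20.5%) of genes with a relative abundance of at least 2, in 1 of 54 (1.85%) of those with at most 0.5, in 8.49% of those between and in 13.6% of all promoter windows. CCAAT occurred in 31.8%, 38.9% and 39.5% of these groups and in 37.4% of all windows. The CArG box occurred in 1.99%, 7.41% and 1.70%, in 1.63% of all windows, and in 2 of 19 windows of listed actin genes. Some genes have several windows that overlap, and a match of letters is not a site of binding.

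Adipocyte genes stood low in cluster 10 on the Poisson scale, though not on every scale. Of 26 adipocyte genes 18 were listed, 6 were above 1, 1 had at least 2 and 4 had at most 0.5. Over all 718 genes the shares were 50%, 23% and 7.66%. The median of the 18 was 0.74. This median lay at 0.40 on the summed centre, at 0.95 against genes of like detection and at 1.02 by odds of detection. Fabp5 and Fabp4, which carry fatty acids in the cell, were found in 27.6% of cluster 10 cells against 85.2% (2.03) and in 19.7% against 75.4% (1.88), and Lpl, which frees fatty acids from circulating triglyceride, in 32.4% against 94.1% (1.66). Cd36, a fatty acid transporter, was found in 1.40% against 30.4% (0.47), Retn, the secreted protein resistin, in 0.50% against 12.3% (0.46) and Car3, a carbonic anhydrase abundant in fat, in 0.90% against 26.4% (0.35). The hormone Adipoq was found in 1.00% against 19.3% (0.56). None of 5 thermogenic genes found anywhere in the table was listed for cluster 10. A gene without an entry there is not shown to be at 0.

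The 15 genes with the lowest relative abundance were found in 0.10% to 1.30% of cluster 10 cells and 12.2% to 42.9% of all others. Rnf144a, a ubiquitin ligase, was lowest, at 0.10% of cluster 10 cells against 20.4% (0.05). It was followed by Zbtb16, a zinc finger repressor, at 0.10% against 15.4% (0.07), and Pde4d, which breaks down cyclic AMP, at 0.30% against 20.1% (0.16). Gpd1, which makes glycerol 3-phosphate for triglyceride, was at 0.20% against 12.2% (0.18). The percentages are printed to 0.1 points, so rounding alone leaves a range of over 1.5 times for 4 of the 718 genes. This count does not cover the 2 genes printed at 100% elsewhere, Gm42418 and Fth1, whose lower end is open.

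Of 28 cell cycle genes in the table, 3 were listed for cluster 10, beside 718 of all 3908 gene symbols. Mki67, a proliferation marker, was found in 3.20% against 23.6% (1.45), Hmgb2, a chromatin protein of dividing cells, in 7.50% against 52.8% (1.25) and Cenpf, a kinetochore protein, in 2.20% against 20.0% (1.20). The median abundance ratio of these 3 genes was 0.47 to cluster 0 and 0.81 to cluster 1, beside 0.11 and 0.10 for all shared genes. Single values ran from 0.14 to 0.59 and from 0.18 to 1. Ccnd1, cyclin D1, which drives entry into the cycle and was not on that list, stood much higher, at 6.5% against 13.8% (5.44), with 0.50% in cluster 4. Bax, which promotes apoptosis, was found in 30.3% against 82.2% (2.51), and the p53 targets Ccng1 and Cdkn1a in 10.7% against 46.8% (2.16) and 7.30% against 49.4% (1.34). Of 6 listed immediate early genes, 1 was above 1, against 50% of all 718 genes, with a median of 0.92. Junb was highest, at 18.4% against 85.8% (1.25), and Myc lowest, at 3.30% against 52.0% (0.55). Of 4 listed splicing factors 1 was above 1, with a median of 0.88. These included Srrm2, a large protein of nuclear speckles, at 16.7% against 91.4% (0.90), and Sf3b1, a core subunit that recognises the branch point, at 10.7% against 81.8% (0.80).

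The largest falls in percentage points were those of genes found in most other cells. Prrc2c, a cytoplasmic RNA-binding protein, fell from 87.1% elsewhere to 12%, which put it at place 88 of 89 genes of like detection. Srrm2, the splicing regulator Rbm39 (16.3% against 89.2%) and Atxn7l3b (10.7% against 83.5%) followed. Ebf1, a transcription factor of early fat cell development, was found in 13.2% against 84.3% (0.92).

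Mitochondrial RNAs, ribosomal proteins and lysosomal genes lay above the median gene on the Poisson scale. All 9 listed genes of the 13 encoded in mitochondrial DNA were above 1, against 50% of all 718 genes, with a median of 1.71. mt-Atp6, a subunit of ATP synthase, was found in 76.9% against 99.9% (2.55) and mt-Nd6, of respiratory complex I, in 8.10% against 52.2% (1.38). Against genes of like detection, 5 of the 9 were above the median, and their median was 0.91 on the summed centre and 0.16 by odds of detection, so their side of the other genes turned with the scale. The authors had removed cells with a high mitochondrial share before clustering. The table held 77 cytosolic ribosomal protein genes, of which 4 were listed for cluster 10 and 71 for cluster 4. Of all 3908 gene symbols, 718 and 2072 were listed for these clusters. The 4 ribosomal protein genes of cluster 10 were Rpl38, Rplp0, Rpl35 and Rpl4, at 46.3% to 77.4% of cells against 95.5% to 99.5%. Their median of 3.37 turned to 0.99 by odds. All 5 listed lysosomal genes were above 1, against 50% of all 718 genes. They were led by Cd63, a membrane protein of late endosomes, at 73.4% against 95.6% (5.10). Ftl1 and Fth1, the subunits of the iron store ferritin, were found in 85.3% against 99.4% and 85.1% against 100%.

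**Figure D3:**
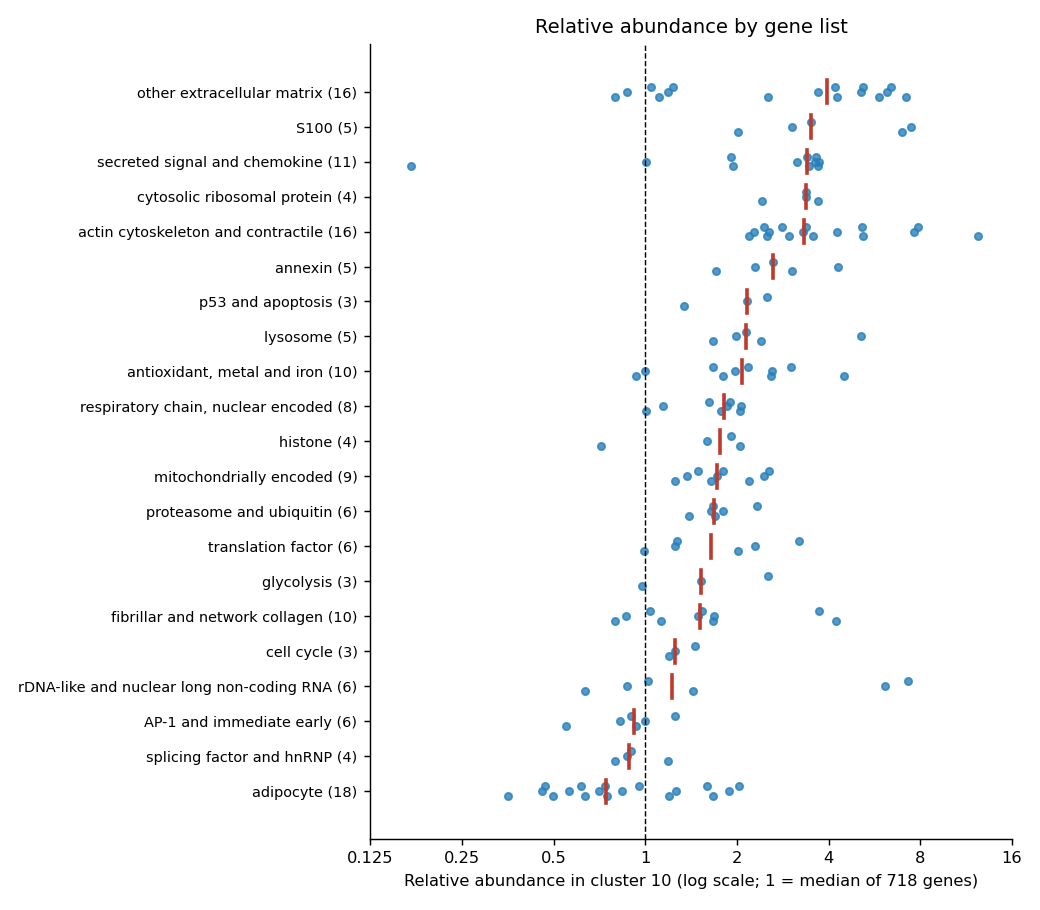
Points give the relative abundance of each listed gene of 21 lists with at least 3 listed members, on a log scale where 1 is the median of the 718 genes; red bars are list medians and the number of listed genes stands in brackets. All 16 actin and contractile genes and all 5 S100 genes lie above 2, while 12 of 18 adipocyte genes lie below 1.

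The actin, S100, annexin, matrix, secreted, lysosome and p53 lists, 7 in all, kept a median above 1 and the immediate early and splicing lists, 2 in all, a median below 1 on the Poisson, odds, summed and like-detection scales. The medians of the other 12 fell on both sides of 1. Each median covers only the members listed for cluster 10, which can be few of those in the table. These were 5 of 15 lysosome, 3 of 6 p53, 6 of 16 immediate early and 4 of 43 splicing genes, beside 718 of all 3908 gene symbols. The markers of immune, glial, erythroid and epithelial cells were absent from the whole table, and 1 endothelial and 1 mural marker occurred in it, neither listed for cluster 10. The authors had removed immune, glial and endothelial cells.

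Cluster 4 was the other cluster with low detection, and 483 genes were listed for both, which is 67.3% of the genes of cluster 10 and 23.3% of the 2072 genes of cluster 4. Over these genes a cluster 10 cell had 82.1 detected on average, a cluster 4 cell 116 and a cell outside cluster 10 300.2. Of the 483, 193 (40%) were found in more cells of cluster 10, and 290 in fewer. The median abundance in cluster 10 was 0.65 times that in cluster 4, with single genes from 0.01 to 42.7 times.

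Genes of the actin, S100, annexin and matrix groups were higher in cluster 10 than in cluster 4. All 4 S100 genes, all 5 annexins and 10 of 15 matrix genes listed for both were found in more cells of cluster 10, against 40% of all 483 shared genes. S100a4 was found in 36.9% against 4.10%, Tmsb4x in 86.2% against 23.4%, Tpm2 in 43.1% against 3.70% and Thbs1 in 55.6% against 15.6%. The highest ratios were those of genes nearly absent from cluster 4. Fez1, which links cargo to kinesin motors, was found in 8.20% of cluster 10 and 0.20% of cluster 4, Cemip, which breaks down hyaluronan, in 11.7% and 0.50%, Emp3, a membrane glycoprotein, in 27.0% and 1.40%, and Cnn2, an actin-binding calponin, in 21% and 1.70%. F3, tissue factor, which the study used to mark preadipocytes, was found in 43.5% and 11.2%, and Cd9, a tetraspanin, in 19% and 2.10%. Of 10 preadipocyte genes found anywhere in the table, these 2 were the only ones listed for cluster 10, against 9 for cluster 4. Of all 3908 gene symbols, 718 were listed for cluster 10 and 2072 for cluster 4. Mmp3 and Itgb1, which the study also used as preadipocyte markers, were not listed for cluster 10.

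Adipocyte genes went the other way. None of the 18 was found in more cells of cluster 10 than of cluster 4, against 40% of all 483 shared genes. The median ratio of the 18 was 0.07, against 0.65 for all 483 genes. Fabp4 was found in 19.7% of cluster 10 and 98.5% of cluster 4, Cd36 in 1.40% and 69.0%, Car3 in 0.90% and 62.1%, and Adipoq in 1.00% and 40.5%. Gpd1 had the lowest ratio, at 0.20% and 26.7%. The 7 mitochondrial genes listed for both were also lower in cluster 10, with a median ratio of 0.23, as mt-Atp6 at 76.9% and 99.7%.

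**Figure D4:**
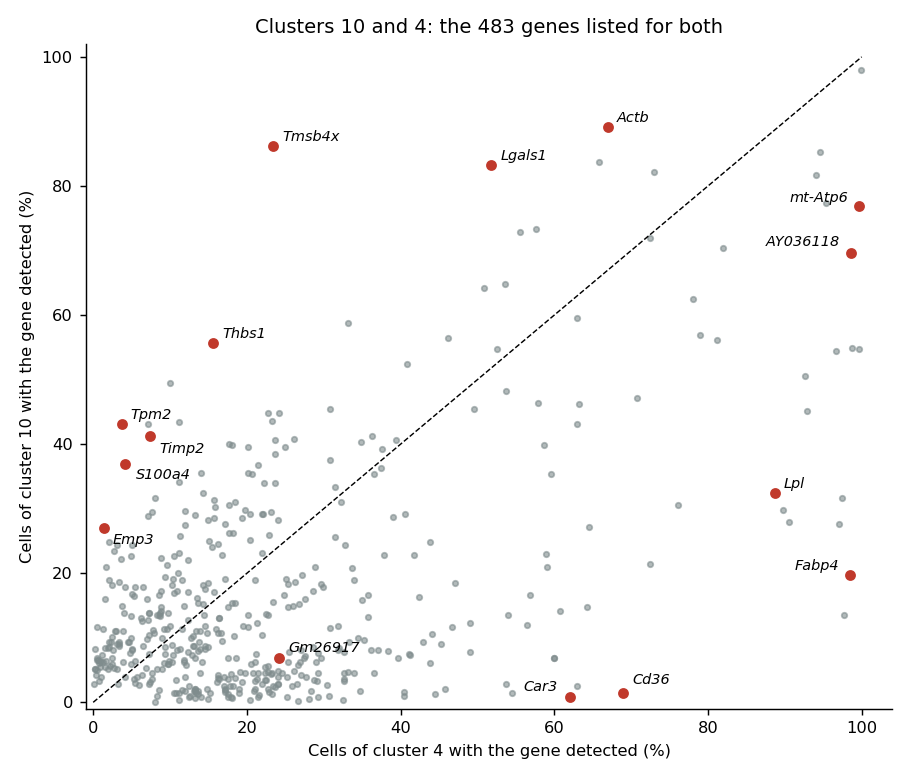
Points are the 483 genes listed for both clusters, with the percentage of detecting cells in cluster 4 on the x axis and in cluster 10 on the y axis; the dashed line marks equal detection. Tmsb4x (86.2% in cluster 10, 23.4% in cluster 4), Thbs1 and Tpm2 lie above the line and Fabp4 (19.7% and 98.5%), Cd36 and Car3 below it.

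Clusters 0 and 1 carried the preadipocyte gene F3 in 95.7% and 99.1% of cells. Cluster 10 shared 266 genes with cluster 0, all found in fewer cells of cluster 10, at a median ratio of 0.11. It shared 248 with cluster 1, of which 3 were found in more cells of cluster 10 and 243 in fewer, at a median ratio of 0.10. Genes that were higher in cluster 10 than in cluster 4 were lowered to different degrees against clusters 0 and 1. The 15 actin genes shared with each had median ratios of 0.12, against 0.11 and 0.10 for all shared genes. The 4 S100 genes shared with cluster 0 had a median of 0.23, and its 4 shared annexins one of 0.11. The matrix genes had a median of 0.19 over 10 shared with cluster 0 and 0.10 over 9 shared with cluster 1. Tmsb4x stood at 0.37 of its abundance in cluster 0 and 0.34 of that in cluster 1, and Tpm2 at 0.18 and 0.26. S100a4 stood at 0.32 and Thbs1 at 0.20 of their abundance in cluster 0, and F3 at 0.18 and 0.12.

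Against clusters 0 and 1 the adipocyte genes were lowered less than the median shared gene. Their median ratios were 0.23 over 14 genes of cluster 0 and 0.29 over 13 of cluster 1. Car3 was found in 0.90% of cluster 10, 1.60% of cluster 0 and 0.60% of cluster 1, Plin1, which coats lipid droplets and was named after its values had been seen, in 0.90%, 1.30% and 0.60%, and Cd36 in 1.40%, 2.50% and 1.00%. These are the 3 genes found in more cells of cluster 10 than of cluster 1, with values near the lowest printed. Fabp4, at 19.7%, 57.3% and 53.3%, had higher detection in all 3. The 137 genes listed for all 4 clusters gave an average of 30.6 detected genes per cell of cluster 10 and 43.4 per cell of cluster 4, beside 90.7 for each of clusters 0 and 1.

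Of the 718 genes, 62 (8.64%) were listed for cluster 10 alone. Of these 17 were above 1, 4 had at least 2 and 7 at most 0.5, with a median of 0.72. Over all 718 genes the shares were 50%, 23% and 7.66%. Gng2, a G protein subunit, was highest, at 3.90% against 12.9% (3.46), followed by Tgfb3, a TGF-beta ligand, at 2.80% against 14.1% (2.25), Ccng1, and Sdc3, a membrane proteoglycan, at 2.10% against 11.2% (2.15). Mrtfa, a cofactor of serum response factor that is held by actin monomers, came next, at 2.10% against 13.2% (1.80).

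The genes kept in cluster 10 had a shorter annotated exon length than the rest, merged over all transcripts of a gene. In the GENCODE annotation, the merged exons of the 160 protein-coding genes with a relative abundance of at least 2 had a median length of 2462 bases. That of the 54 with at most 0.5 was 5318 bases and that of the 485 between was 5265 bases, beside 4070 bases for the 3829 protein-coding genes of the whole table. The 61 protein-coding genes listed for cluster 10 alone reached 7260 bases. Across all 699 protein-coding genes, exon length and relative abundance had a Spearman correlation of -0.44, as a description. The genes share the same cells and exon length may go with abundance and function, which was not tested. S100a4 had 584 bases and Tmsb4x 1371, and Rnf144a, at a relative abundance of 0.05, had 7340. Thbs1, with 6073 bases, was among the best kept.

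**Figure D5:**
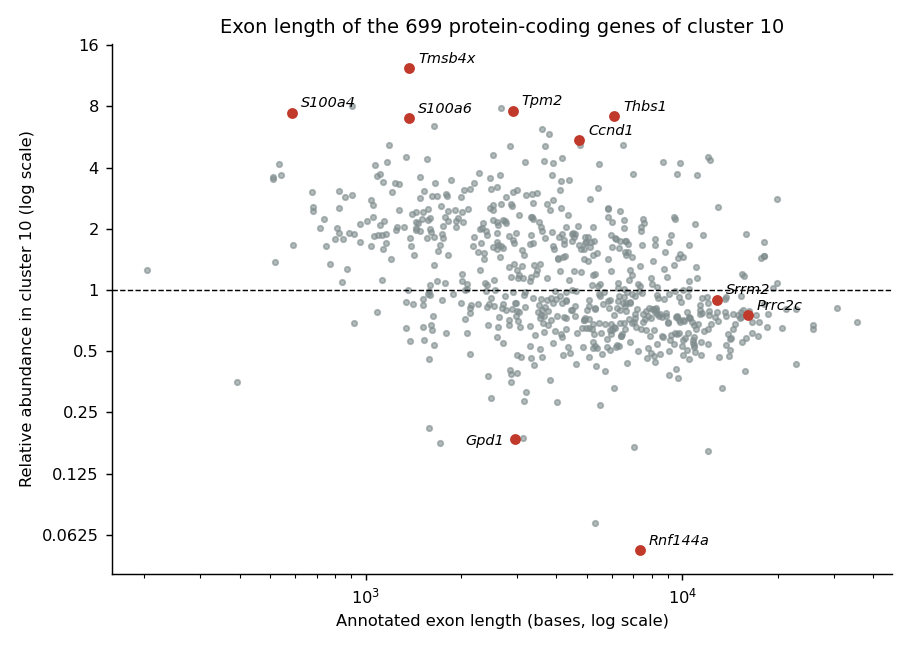
Points are the 699 protein-coding genes of cluster 10, with merged exon length in bases on a log x axis and relative abundance on a log y axis; the dashed line marks 1, the median of the 718 genes. Genes over 2 have a median of 2462 bases and those at most 0.5 a median of 5318 bases, while Thbs1, at 6073 bases, lies near the top.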

How the data were processed

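Single-cell RNA was captured with a 3′ chemistry from 8 samples in 4 groups of 2 (WT and DKO, day 0 and day 6). According to the study's methods, reads were mapped by the authors to mm10 with Cell Ranger 6.0.0 and brought to equal depth. Cells were filtered on a minimum gene number and a maximum mitochondrial share, log-normalized in Seurat and clustered after immune cells, glia and endothelium had been taken out. No removal of doublets is described and doublets were not looked for. The authors deposited 1 table of cluster markers over the pooled cells. Its detection fractions, deposited per gene for the cluster and for all other cells, were used as percents. Its log2 fold changes, p-values and adjusted p-values are the authors' own comparisons and were not used. Entries exist only past the authors' minimums, and the larger fraction was never under 10.1%. No column of per-sample values was left unused (0).

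Values were computed in Python 3.11.15 (matplotlib 3.10.9, scipy 1.17.1, pandas 2.3.3, numpy 2.4.6), and the scripts were tested on simulated data. In the test of relative abundance the simulated cells outside the cluster were all alike. A Poisson mean, -ln(1 - detection), was computed, with 100% taken as 99.95%. Cluster shares were solved from the fractions by least squares. Limits of 2 and 0.5 on relative abundance were descriptive. A spreadsheet had turned the symbols of 5 genes of cluster 10 into dates, of which 1 stayed unnamed. 713 of 718 symbols (99.3%) matched the GENCODE M21 annotation. Members, lists and comparisons were chosen with earlier results of these data known. Genes named were taken from S100a4 and Gm26917, any gene detected at least as often as elsewhere, the 15 highest and the 15 lowest by relative abundance, the 15 with the highest detection, the 10 largest falls, the 10 highest and 10 lowest ratios to cluster 4, the 10 highest listed for cluster 10 alone, up to 3 at each end of each list and the genes beside each limit. The measure against genes of like detection was added after the data had been seen. Alternatives were odds of detection, a summed centre, a reference without cluster 4, a minimum detection of 25% and differences in points, of which the lists were computed only by odds, by the summed centre and against genes of like detection.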

Additional observations from a re-analysis of the deposited data

How the results depend on the processing

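The average detection in cluster 10, 23.4% of that elsewhere, was 23.7% for genes found in at least 25% of other cells and 25.6% with cluster 4 left out of the reference. The 165 genes with a relative abundance of at least 2 became 34 when centred on the summed abundance, and 58 without cluster 4 in the reference, where 483 genes could be computed. The 55 genes at most 0.5 became 24 by odds, 336 on the summed centre and 22 against genes of like detection, a setting chosen after seeing the data. On the summed centre, which lowers all values 1.87 times, Gm26917 turned to 0.765, and the medians of these lists fell below 1, long non-coding RNA 0.655, mitochondrially encoded 0.915, translation factor 0.874, collagen 0.808, cell cycle 0.666, glycolysis 0.813, nuclear-encoded respiratory chain 0.970, proteasome 0.896 and histone 0.936. By odds, mitochondrially encoded turned to 0.160, ribosomal protein 0.990, translation factor 0.772, glycolysis 0.844, antioxidant 0.950 and adipocyte 1.02. Against genes of like detection, translation factor turned to 0.778 and glycolysis to 0.971. Ranked by difference in points in place of ratio, 2 of the 10 genes highest and 2 of the 10 lowest against cluster 4 were shared. The cause of the other changes was not tested. No paired analysis was possible because all cells were pooled over samples, and for the same reason no replicate could be left out. The numbers of cells and molecules behind each percentage are unknown, so no counting error is given.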
